A study of Mus musculus with 10 samples.

Results

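The regions described here are the open chromatin sites that lie inside first introns of protein-coding genes in mouse embryonic stem cells (mESCs). They were taken from the ATAC-seq peak list of F123 cells, an F1 hybrid line of Mus musculus castaneus and S129/SvJae. The line was grown with LIF on irradiated CF1 fibroblasts and moved once to gelatin without feeders before harvest, and no sample received a further treatment. The series holds 2 ATAC-seq and 2 H3K4me3 ChIP-seq samples of this line, and each pair was deposited as a single list of peaks found in both replicates, so no value below has a spread between replicates. The PLAC-seq and input samples were not analysed here. A peak was selected by its measured position and width, namely a width under 1000 bp on an autosome and a midpoint in the first intron of the longest transcript of a coding gene, over 2 kb from every annotated transcript start and in no exon. This left 12566 first-intron peaks of the 179109 peaks in the list (7.02%), or 7.62% of the 164823 autosomal peaks under 1000 bp. Later introns held 33282 other peaks under the same limits.

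ATAC-seq reads mark DNA that the Tn5 transposase can reach, which in most cells means promoters, enhancers and insulator sites. H3K4me3 is the histone mark of active and poised promoters. The first intron is the stretch of a gene body that lies next to the promoter. It is often the longest intron of a gene and can carry enhancers, alternative promoters and binding sites of regulators of the gene itself, as at several genes of the pluripotency network.

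The sequences below show what such a peak looks like. Each is 200 bp of the mm10 reference (RefSeq) centred on a peak and read along the strand of the gene, with matches to the searched motifs in capitals. The first pair are the peaks nearest the transcript start of Esrrb and Sall4, the 2 pluripotency factors of the list that hold a first-intron peak. Esrrb is an orphan nuclear receptor that sustains self-renewal and Sall4 is a zinc finger factor of the same network. The reference is neither of the 2 parental genomes of the line, whose own alleles were not read.
Esrrb, chr12:86364330-86364529, + strand, 3.313 kb from the start, SOX match: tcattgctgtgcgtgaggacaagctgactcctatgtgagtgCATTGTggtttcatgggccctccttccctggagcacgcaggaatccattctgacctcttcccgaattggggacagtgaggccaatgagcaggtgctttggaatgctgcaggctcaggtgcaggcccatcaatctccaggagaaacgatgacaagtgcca
Sall4, chr2:168762019-168762218, − strand, 5.082 kb from the start, SOX and KLF matches: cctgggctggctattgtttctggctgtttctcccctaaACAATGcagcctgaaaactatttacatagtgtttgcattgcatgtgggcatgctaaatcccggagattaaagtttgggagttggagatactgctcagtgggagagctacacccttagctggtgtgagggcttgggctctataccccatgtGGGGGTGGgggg
Another 4 peaks from the gene lists used below, selected after their values were seen, show matches to motifs whose shares are described further down.
Esrrb, chr12:86365468-86365667, + strand, 4.451 kb from the start, ESRRB, AP-1 and SP matches: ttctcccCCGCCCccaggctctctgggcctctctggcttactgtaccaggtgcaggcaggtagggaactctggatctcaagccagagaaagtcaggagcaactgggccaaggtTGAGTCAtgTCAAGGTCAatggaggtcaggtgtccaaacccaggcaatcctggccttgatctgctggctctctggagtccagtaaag
Esrrb, chr12:86402889-86403088, + strand, 41.872 kb from the start, CTCF core match: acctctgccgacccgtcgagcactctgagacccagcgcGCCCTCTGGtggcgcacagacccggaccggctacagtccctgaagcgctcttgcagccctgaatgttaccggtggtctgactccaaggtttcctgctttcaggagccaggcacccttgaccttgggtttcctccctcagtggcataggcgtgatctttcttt
Tet1, chr10:62883889-62884088, − strand, 15.129 kb from the start, octamer match: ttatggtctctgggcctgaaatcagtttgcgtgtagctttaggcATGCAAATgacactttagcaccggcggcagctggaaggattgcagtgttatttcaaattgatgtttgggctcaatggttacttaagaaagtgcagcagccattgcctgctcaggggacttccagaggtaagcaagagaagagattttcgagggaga
Cntnap2, chr6:45443811-45444010, + strand, 383.85 kb from the start, YY1 and forkhead matches: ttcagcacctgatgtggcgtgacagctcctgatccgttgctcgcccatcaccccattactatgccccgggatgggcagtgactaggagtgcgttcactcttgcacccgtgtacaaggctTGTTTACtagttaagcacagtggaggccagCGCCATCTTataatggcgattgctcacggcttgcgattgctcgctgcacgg

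The first-intron peaks were short. Their widths ran from 73 to 999 bp with a median of 235 bp, beside 227 bp in later introns and 248 bp over all autosomal peaks under 1000 bp, and 13.2% were at least 500 bp wide. Just inside the width limit, 47 peaks measured 950 to 999 bp and 48.9% of them shared a base with an H3K4me3 peak, while the 31 peaks of 1000 to 1049 bp just outside it had a share of 35.5%. Just inside the distance limit, 2001 to 2200 bp from the nearest start, the peak density was 0.0667 per kb, and just outside it, at 1801 to 2000 bp, it was 0.0725 per kb.

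Of 20722 autosomal coding genes, 10324 had first-intron bases that could hold such a peak, here called eligible bases. These are known bases in no exon of any gene and over 2 kb from every transcript start, and they came to 178.715 Mb. At least 1 peak lay in the first intron of 4135 genes (40.1%). An H3K4me3 peak within 1 kb of the start of the longest transcript was found for 7670 of the 10324 genes (74.3%), referred to below as marked genes, and not for the other 2654. A single peak was held by 1674 genes, 2 by 884, 3 by 515 and 4 by 294. The 197 genes with 10 or more held 23.9% of all pairs of a gene and a peak in 17.3% of the eligible bases. Neighbouring peaks of an intron lay a median of 4257 bp apart, and 18.4% of the 8699 neighbouring pairs were within 1 kb of each other.

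The starts of genes that mark the cell type were checked in both lists. Of 12 embryonic stem cell genes, 11 had H3K4me3 at the start and 12 were open there in the ATAC-seq list, with fold enrichments from 9.74 at Dppa5a to 42.9 at Sox2. The exception was Esrrb, whose longest transcript starts outside an H3K4me3 peak while another of its annotated starts has one. Of 12 fibroblast genes, which the feeder cells would express, 8 had both, with fold enrichments from 3.39 at Dcn to 25.9 at Pdgfra, and Col3a1, Postn, Lum and Fap had neither. Over all autosomal coding genes, 13830 of 20722 had an H3K4me3 peak within 1 kb of the start of the longest transcript. The part of feeder cells in the peaks of both lists was not tested.

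A single annotation weighs on several values. Gm20388, on chr8:119910841-124345722, is annotated with a first intron of 4.38 Mb that contains 71 whole coding genes. It counted 379 of the first-intron peaks (3.02%), against 41 for the next gene, and 312 of the 379 are first-intron peaks through Gm20388 alone. Values that move without it are given both ways.

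First introns were compared with later introns in the 9034 genes that had eligible bases in both, to ask whether open sites are denser next to the promoter. Before distance from the start was taken into account, first introns of the 7013 marked genes were denser. They held 10726 peaks in 145.122 Mb, or 0.0739 peaks per kb (95% exact Poisson interval 0.0725 to 0.0753), and their later introns 22091 peaks in 343.677 Mb, or 0.0643 per kb. The ratio was 1.15 (95% interval 1.097 to 1.21, Poisson regression with errors clustered by gene), and 1.13 (1.09 to 1.18) without Gm20388. In the 2021 unmarked genes the densities were 0.0591 and 0.0533 per kb, with a ratio of 1.11 whose interval, 0.995 to 1.24, includes 1. The ratio of the 2 ratios was 1.04 (0.919 to 1.17), so a difference between marked and unmarked genes was not detected. These intervals cover the spread between genes and not between replicates.

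Gene by gene the picture was mixed. The first intron was the denser class in 2190 marked genes, the later introns in 3345, and 1478 had no peak in either. In unmarked genes these counts were 404, 746 and 871. The bases searched also differed. In marked genes the median was 7.14 eligible kb of first and 18.1 kb of later introns, and 46.5% and 68.1% of genes held a peak there. A first intron without a peak counts as the sparser class wherever the later introns hold any. Pooled over each chromosome, marked genes gave a ratio above 1 on 18 of 19 autosomes, with a median of 1.14. The exception was chromosome 18 at 0.757, and the highest ratio, 1.31, was that of chromosome 8, where it fell to 1.12 without Gm20388. Unmarked genes gave a ratio above 1 on 13 of 19.

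The 2 classes of intron differ in where they lie. Of the eligible first-intron bases of marked genes, 40.8% were 2 to 20 kb from the transcript start, against 8.98% of later-intron bases, and 19.1% against 53.1% were over 100 kb away. At equal distance the excess of first introns in marked genes was gone. Within a distance class a gene entered with whichever introns it had there, so first and later introns came partly from different genes. Their densities in first and later introns were 0.0525 and 0.0548 per kb at 2 to 5 kb, 0.104 and 0.106 per kb at 5 to 10 kb, and 0.0961 and 0.0975 per kb at 10 to 20 kb, and all 3 ratios had intervals that include 1. Farther out first introns were the sparser class, with 0.0816 against 0.0865 per kb at 20 to 50 kb (ratio 0.943, 0.889 to 0.9998) and 0.0612 against 0.0747 per kb at 50 to 100 kb (ratio 0.819, 0.749 to 0.896).

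Beyond 100 kb the result rested on 1 gene. First introns of marked genes held 0.0450 peaks per kb there and later introns 0.0473 (ratio 0.951, 0.653 to 1.39), and without Gm20388 first introns held 0.0356 per kb (ratio 0.753, 0.663 to 0.854). With the 6 distance classes as covariates, an alternative chosen after seeing the data, the ratio of marked genes was 0.931 (0.860 to 1.01) with Gm20388 and 0.898 (0.862 to 0.936) without it. First introns of marked genes thus held more peaks per kb than later introns in total. At equal distance and without this annotation, they held fewer in the classes beyond 20 kb. Within 20 kb of the start the intervals of the ratios included 1. The comparison at equal distance lies partly between genes, and the part of other differences between those genes was not tested.

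In unmarked genes with both intron classes, only the class nearest the start had an interval that excludes 1 among the 6 tested. At 2 to 5 kb their first introns held 287 peaks at 0.0712 per kb and their later introns 44 peaks at 0.0462 per kb, a ratio of 1.54 (1.13 to 2.098). Over all genes with eligible bases there, also those with one intron class, the densities were 0.0686 (347 peaks, exact Poisson interval 0.0615 to 0.0762) and 0.0578 per kb (249 peaks, 0.0509 to 0.0655), whose intervals overlap, a ratio of 1.19. From 5 kb outward the first-intron densities lay between 0.0410 and 0.0628 per kb, and the 5 ratios, from 0.882 to 1.03, had intervals that include 1.

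**Figure D1:**
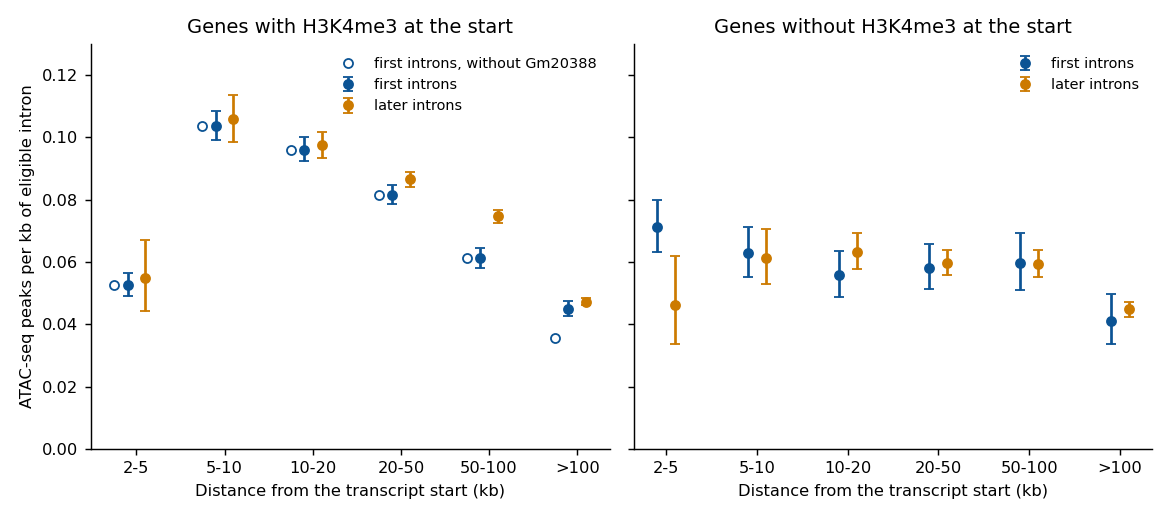
Density of ATAC-seq peaks (peaks per kb of eligible intron) against distance from the transcript start (kb, 6 classes) in first and later introns of genes with and without H3K4me3 at the start; bars are 95% exact Poisson intervals and open circles leave out Gm20388. In marked genes both classes rise from about 0.05 per kb at 2 to 5 kb to over 0.1 per kb at 5 to 10 kb and then fall with distance, and first introns lie below later introns at 50 to 100 kb.

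**Figure D2:**
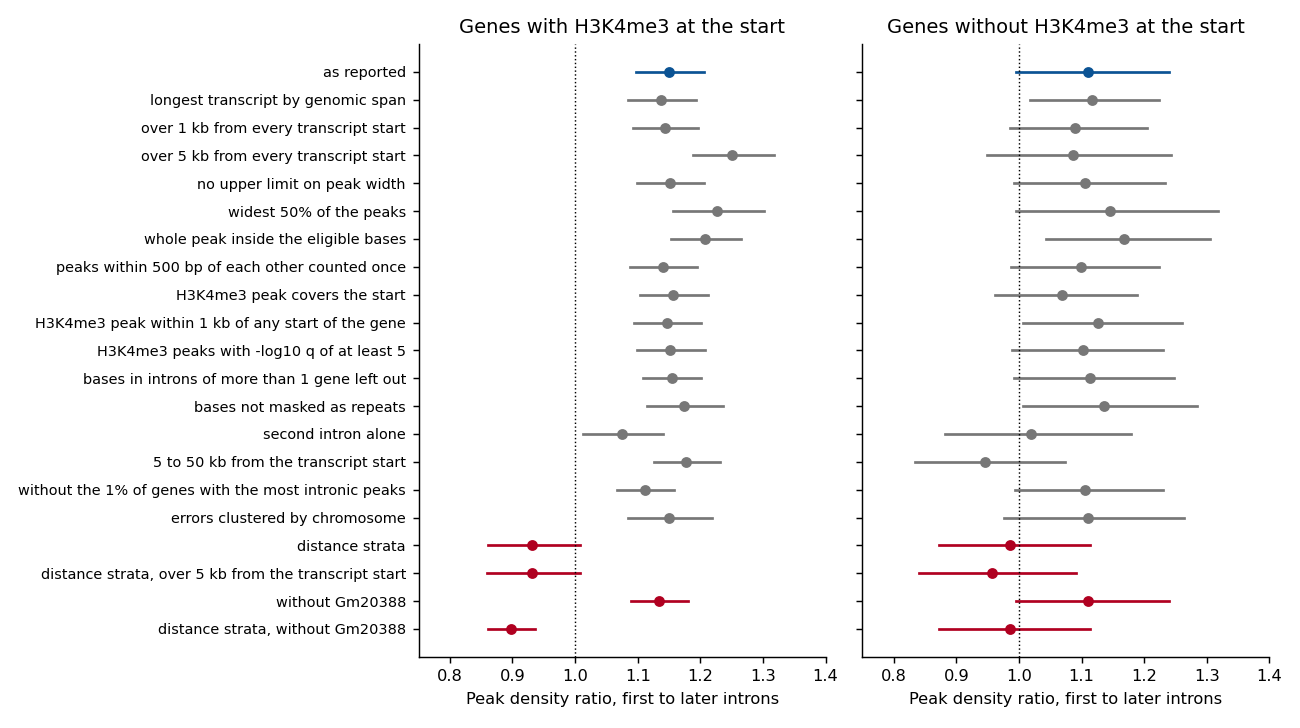
Ratio of peak density in first to later introns (horizontal axis) as reported (blue), under the alternatives set first (grey) and under those added after seeing the data (red), for genes with and without H3K4me3 at the start; lines are 95% intervals and the dotted line marks 1. In marked genes the ratio is 1.15 as reported and falls to 0.931 and, without Gm20388, 0.898 once the distance classes are covariates.

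The H3K4me3 state of the start was associated with how many sites the first intron held. Over all genes with eligible bases, first introns of marked genes held 0.0740 peaks per kb and those of unmarked genes 0.0585, a ratio of 1.27 (1.14 to 1.41), and 1.31 (1.19 to 1.44) with the distance classes as covariates. A first-intron peak was present in 45.7% of marked and 23.9% of unmarked genes. The marked genes also had more eligible sequence per first intron, with a median of 6.68 kb against 3.06 kb.

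From 2 to 5 kb from the start the order was the other way round as a whole, with 0.0546 peaks per kb (0.0511 to 0.0583) in first introns of marked genes and 0.0686 in those of unmarked genes. Both were alike at 2.0 to 2.5 kb (0.0626 and 0.0646), and at 2.5 to 3.0 kb marked genes had the higher value (0.0588 and 0.0496). In bins of 0.5 kb, first introns of marked genes fell from 0.0626 peaks per kb at 2.0 to 2.5 kb to 0.0447 at 3.5 to 4.0 kb, stood at 0.0575 at 4.5 to 5.0 kb, and rose to 0.0858 at 5.0 to 5.5 kb and 0.106 at 5.5 to 6.0 kb. They stayed near that level up to 12 kb. First introns of unmarked genes showed no such step, with 0.0670 per kb at 3.5 to 4.0 kb and 0.0571 at 5.5 to 6.0 kb.

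The same profile appeared around wide ATAC-seq peaks, those of at least 1000 bp, which were left out of the selection. First introns of marked genes held 0.0361 peaks per kb at 3 to 4 kb from the nearest wide peak and 0.116 at 5 to 6 kb, and later introns of marked genes 0.0433 and 0.112 per kb. Of the marked genes 44.5% had a wide peak at their start (within 1 kb), and of the unmarked genes 0.565%. First-intron bases of marked genes 2 to 5 kb from the start held 0.0387 peaks per kb where a wide peak was within 5 kb and 0.0689 where none was, next to 0.0680 in unmarked genes with no wide peak within 5 kb. Unmarked genes with a wide peak within 5 kb gave 0.0985 per kb from only 9 peaks (0.0451 to 0.187). In marked genes with no wide peak within 5 kb, the density at 5 to 10 kb from the start was 0.106 per kb. The part of wide peaks, and of the way peaks were called around them, in the low density near marked starts was not tested.

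**Figure D3:**
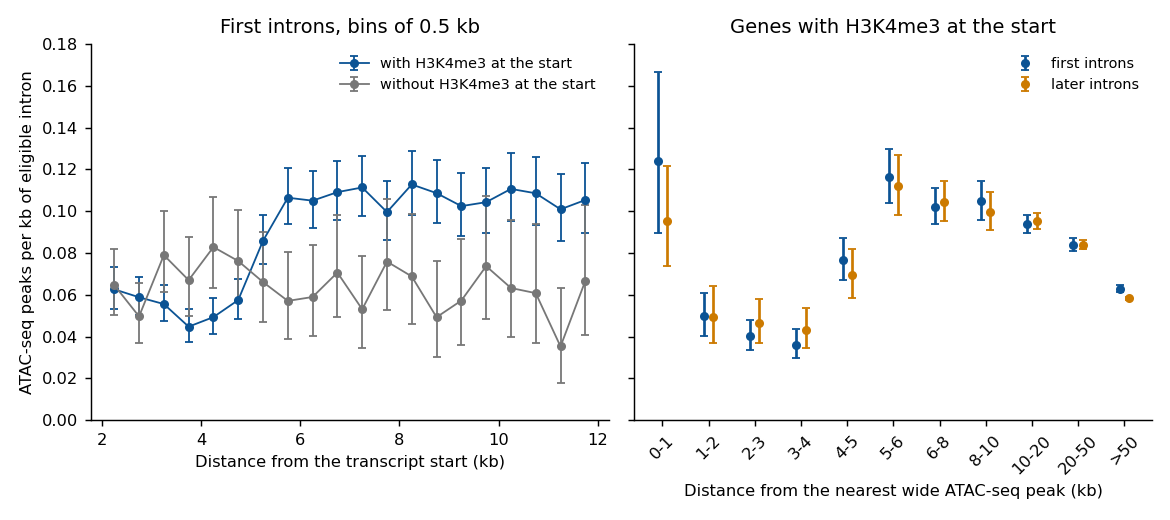
Left, peaks per kb of eligible first intron in bins of 0.5 kb from the transcript start, for genes with and without H3K4me3 there; right, peaks per kb of marked genes by distance (kb) from the nearest ATAC-seq peak of at least 1000 bp, in first and later introns. Bars are 95% exact Poisson intervals. Marked first introns step up from 0.0575 to 0.106 per kb between 4.5 and 6.0 kb from the start, and both intron classes step up at 4 to 6 kb from a wide peak.

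Density was also described by the length of the first intron. Genes were divided into 5 equal classes by their eligible first-intron length. Among marked genes, the share with at least 1 peak went from 3.21% in the shortest class to 14.9%, 41.3%, 68.7% and 89.9% in the longest, as the bases searched also increased. Their first-intron densities were 0.0521, 0.0692, 0.0948, 0.0991 and 0.0675 peaks per kb, lower in the longest class than in the 2 before it. In unmarked genes the densities were 0.0417, 0.0754, 0.0674, 0.0625 and 0.0552 per kb and followed no such order. The ratio of first to later introns in marked genes was 0.704 in the shortest class and 0.899 in the next, and 1.21, 1.37 and 1.24 in the others, and in unmarked genes it was 0.813, 1.404, 1.03, 1.12 and 1.16.

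Some of these sites carried H3K4me3 themselves. Of the 12566 first-intron peaks, 1308 (10.4%, 95% Wilson interval 9.89 to 11.0) shared at least 1 base with an H3K4me3 peak, against 2251 of 33282 in later introns (6.76%, 6.50 to 7.04). The ratio was 1.54 (1.41 to 1.68, Poisson regression with errors clustered by gene). It was 1.18 (1.03 to 1.34) with the distance classes as covariates and 1.11 (1.01 to 1.23) when Gm20388 was left out as well. The H3K4me3 peaks under first-intron sites were weak, with a median fold enrichment of 4.83 (quartiles 3.40 and 9.20), near the 4.62 under later-intron sites. The strongest H3K4me3 peak at a coding gene start, a maximum per gene, had a median of 31.3 over 13311 genes. These are fewer than the 13830 coding genes with H3K4me3 at the start.

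The overlap was most frequent next to marked starts. At 2 to 5 kb, 286 of 882 first-intron peaks of marked genes overlapped H3K4me3 (32.4%, Wilson interval 29.4 to 35.6), and later introns gave 26.5% (22.4 to 31.1). At 5 to 10 kb the shares were 10.5% and 11.4%. At 50 to 100 kb they were 8.45% (7.10 to 10.0) and 5.86% (5.30 to 6.48). Over 100 kb, 106 of 1250 first-intron peaks (8.48%) and 5.05% of later-intron peaks overlapped, but 64 of the 106 were counted in Gm20388, and without it the first-intron share was 4.79% (3.56 to 6.41). Unmarked genes gave 8.82% in first introns and 7.74% in later introns.

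Among 19 autosomal pluripotency factors, 7 had eligible first-intron bases. Of the 7, 2 (28.6%) held a peak, next to 40.1% of all genes. Those 2 held 19 peaks, so that the 7 genes had 0.167 peaks per kb over their 113.602 eligible kb, next to 0.0718 over the first introns of all genes. Esrrb held 17 peaks in 100.759 eligible kb, from 3.313 to 105.277 kb from its start. They form 3 loose groups, with 2 peaks within 5 kb of the start, 5 between 25.117 and 42.937 kb, and 10 from 72.449 kb onward. A single one of them, at 41.872 kb, overlapped an H3K4me3 peak, of fold enrichment 2.87. The later introns of Esrrb were denser, with 15 peaks in 40.936 kb. Sall4 held 2 peaks in 5.228 eligible kb, at 5.082 and 5.901 kb, both under 1 H3K4me3 peak of fold enrichment 37.6.

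The other 5 with eligible bases had short stretches and no peak. These were Tfcp2l1 with 2.295 kb, Nr5a2 with 2.749 kb, Nanog, the homeodomain factor of the naive state, with 1.969 kb, Zfp42 with 0.376 kb and Klf5 with 0.226 kb. Pou5f1, Klf2, Klf4, Prdm14, Tbx3, Tcf7l1, Zfp281, Rest, Mycn, Etv5 and Rif1 had no eligible first-intron base, so the limits left nothing to count. Sox2 has no intron. Tcf7l1, the repressor at the end of the Wnt pathway, held 33 peaks in its later introns at 0.262 per kb and is invisible in this selection since its first intron is 0.084 kb long.

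Genes of chromatin regulators had a similar density spread over more genes. Of 27 listed, 21 had eligible bases, and 20 of these were marked. A first-intron peak was held by 17 of the 21 (81.0%), next to 40.1% of all genes. This share rose with eligible length among marked genes, and lengths were not matched here. The list held 63 peaks at 0.171 per kb, beside 0.0991 per kb in its later introns and 0.0718 per kb in the first introns of all genes. H3K4me3 lay under 20 of the 63, next to 1334 of the 12834 pairs of a gene and a peak over all genes. Most of the 20 lay in few genes, with 6 in Tet2, 5 in Tet1, and 3 each in Kdm4c and Kdm6b. Tet2, an enzyme that oxidises 5-methylcytosine, held 10 peaks in 27.715 kb at 10.13 to 28.599 kb from its start, and 6 of them overlapped H3K4me3 with fold enrichments of 2.87 to 8.12. Its later introns held 3 peaks in 28.717 kb. Jarid2, a partner of Polycomb complex PRC2, held 13 peaks at 0.149 per kb, all between 20.711 and 83.441 kb from the start, with H3K4me3 under 1. Ep300, a histone acetyltransferase, held none in 8.559 kb. The list has no replicate and was not tested as a set.

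Of 17 signalling genes with eligible bases, 10 (58.8%) held a peak, next to 40.1% of all genes. Their density of 0.0773 per kb lay near the 0.0718 per kb of all genes. Smad3 and Smurf1, which act in the TGF-beta and BMP pathways, held 6 each. Stat3, the effector of LIF, held none in 25.995 kb. The 5 eligible genes of the formative and primed states had 15 peaks at 0.0698 per kb, of which Foxp1 held 7 and Grhl2 6, while the cadherin gene Cdh2 held none in 31.842 kb.

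Regulators of extraembryonic lineages were few but dense, with 9 peaks in 38.43 kb (0.234 per kb). Of the 7 eligible genes 3 (42.9%) held a peak, near the 40.1% of all genes. The later introns of the list were also dense, with 0.123 peaks per kb next to 0.0624 over all genes. Tead4, a trophectoderm factor, held 6 peaks from 4.012 to 21.613 kb, 2 of them with H3K4me3. Cdx2, another trophectoderm factor, held 2 peaks at 2.258 and 2.833 kb, both under an H3K4me3 peak of fold enrichment 12.5, in 1.943 eligible kb. Sox7 held none in 2.081 kb.

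Genes of other tissues were sparser per kb. Density fell beyond 10 kb from the start in marked genes, and the lists were not compared at equal distance or intron length. All 17 eligible synaptic and neuronal adhesion genes held a peak, next to 40.1% of all genes. Yet with 87 peaks in 4549.71 kb their density was 0.0191 per kb, and that of their later introns 0.0270. Kcnip4 held 13 in 676.54 kb and Csmd1 11 in 315.628 kb. Striated muscle genes gave 0.0338 per kb, and 4 of 7 (57.1%) held a peak. Ryr2, the cardiac calcium release channel, held 8 and Sgcd 5, and Mybpc1 held none in 14.776 kb. Leukocyte genes gave 0.0265 per kb, below their later introns at 0.0635. Of these genes 6 of 15 (40.0%) held a peak, near the 40.1% of all genes. Cd247 held 3, and Runx3 held 2 that lay 20.056 and 20.672 kb from the start under 1 H3K4me3 peak of fold enrichment 5.99. Themis held none in 51.841 kb.

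After Gm20388, the genes with the most first-intron peaks had long first introns. Magi1, a scaffold of cell junctions, held 41 in 337.312 kb, and none overlapped H3K4me3. Grip1 held 28, and Macf1, Ptprg and Ext1 held 27 each. Arl15, Rbm20 and Ntm held 25 each and Fgf14 held 24. Macf1, a crosslinker of actin and microtubules, was the densest of these at 0.248 per kb, against 0.0785 in its later introns. The start of its longest transcript was unmarked while another annotated start was marked, and 5 of its peaks overlapped H3K4me3. Ext1, a heparan sulfate polymerase, held 0.117 per kb in its first intron and a single peak in 36.127 kb of later introns.

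The highest densities came from short eligible stretches. Among marked genes with at least 10 eligible kb these were Tmem267 with 8 peaks in 10.917 kb (0.733 per kb), Cdkl4 with 0.550, Rab12 with 0.532, Vac14 with 0.526 and Lix1 with 0.487 per kb. Tmem267 has a first intron of 118.448 kb of which the rest was not eligible. Among unmarked genes they were Syce3 with 0.462, Cd244a with 0.400, Fam169b with 0.386, 4930556J24Rik with 0.360 and Zfp534 with 0.330 per kb. At the other end, Kctd8 had a marked start and no peak in 196.165 eligible kb. Gabbr2, a GABA-B receptor subunit, had none in 114.07 kb of its first intron but 17 peaks in 196.619 kb of later introns. Dchs2, Hs3st2 and Dgkb had none in 107.597, 103.68 and 94.192 kb.

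**Figure D4:**
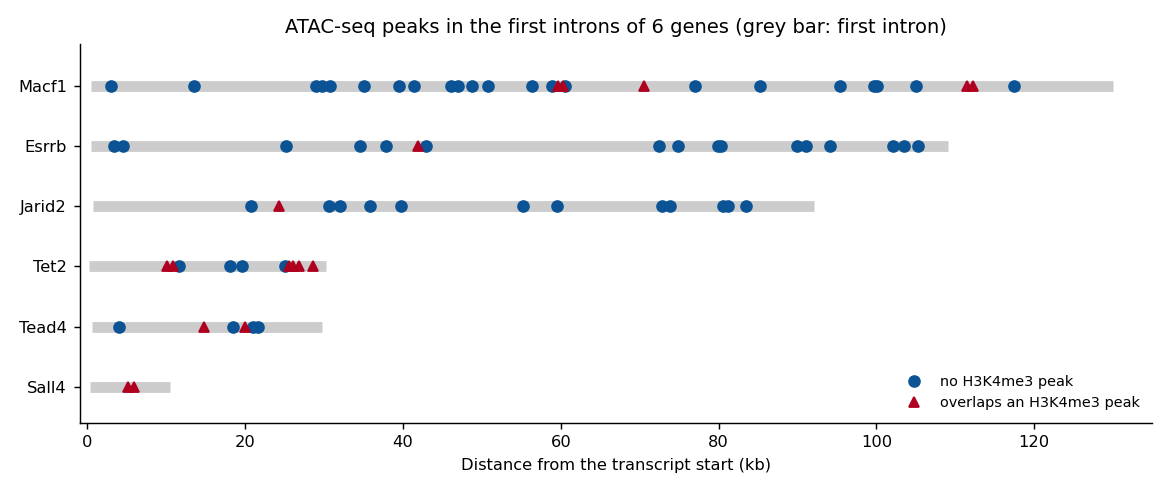
Positions of the ATAC-seq peaks along the first introns of 6 genes (horizontal axis, kb from the transcript start; grey bars are the introns), chosen after their values were seen; triangles overlap an H3K4me3 peak and circles do not. Esrrb and Macf1 hold 17 and 27 peaks spread over more than 100 kb, while 6 of the 10 peaks of Tet2 overlap H3K4me3.

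In sequence the first-intron peaks resembled those of later introns more than the intron around them. The 200 bp windows on their midpoints had a median GC content of 52.0%, against 51.0% in later-intron peaks and 42.5% in 82340 first-intron windows without a peak. A CpG ratio (observed to expected) of at least 0.6, as in CpG islands, was seen in 3.42% of first-intron peaks and 3.53% of later-intron peaks. Over all autosomal peaks under 1000 bp, which include those near transcript starts, it was seen in 10.9%. Of the first-intron peaks that overlap H3K4me3, 10.6% had such a ratio, and of the other first-intron peaks 2.59%.

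Matches to 15 short motifs were counted on both strands of these windows. The shares are descriptions with Wilson intervals, and a match is no binding site. The KLF motif (GGGNGTGG) was found in 16.0% (15.4 to 16.7) of first-intron peaks, 14.1% (13.7 to 14.4) of later-intron peaks and 4.72% of windows without a peak. Of the 2012 first-intron peaks with a KLF match, the first match of 1060 lay in masked repeats. In later introns this held for 2489 of 4680. Within 20 kb of the start the KLF shares had overlapping intervals, at 16.4% in first and 16.1% in later introns, and beyond 20 kb they were 15.6% (14.7 to 16.5) and 13.5% (13.1 to 13.9). The ESRRB motif (TCAAGGTCA), as in the Esrrb window printed above, was found in 0.987% (0.828 to 1.18), 0.634% (0.554 to 0.725) and 0.566%. Within 20 kb of the start its shares were 1.12% (0.889 to 1.41) in first introns and 0.537% (0.391 to 0.736) in later introns, and beyond 20 kb they were 0.840% and 0.666% with overlapping intervals. Of the 124 first-intron peaks with an ESRRB match, the first match of 72 lay in masked repeats. For ESRRB in later-intron peaks this held for 102 of 211.

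The CTCF core (CNAGNGGGC), the motif of the insulator protein, went the other way. It was found in 4.55% (4.20 to 4.93) of first-intron and 5.51% (5.27 to 5.76) of later-intron peaks, and in 1.18% of windows without a peak. Within 20 kb of the start the shares were 4.47% (3.99 to 5.00) and 5.99% (5.46 to 6.57), and beyond 20 kb, at 4.67% and 5.38%, their intervals overlapped. The YY1 motif (AAGATGGCG) was in 0.971% (0.814 to 1.16) of first-intron peaks, 1.34% (1.22 to 1.47) of later-intron peaks and 0.0923% of windows without a peak. In both distance classes the intervals of first and later introns overlapped, with 0.497% and 0.579% within 20 kb and 1.47% and 1.54% beyond. The class beyond 20 kb has no upper limit, so distance was matched only coarsely. Repeats held 103 of the 122 first-intron YY1 matches. The SP motif (GGGCGG) was in 10.2% of first-intron peaks, 1.67% of windows without a peak and 20.9% (18.8 to 23.2) of the first-intron peaks that overlap H3K4me3.

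The other motifs had overlapping intervals in first-intron and later-intron peaks. AP-1 (TGANTCA) was in 11.3% of first-intron peaks and 5.93% of windows without a peak, and the POU octamer (ATGCAAAT) in 2.51% and 1.46%. TEAD (ACATTCCA) was in 1.51% and 0.923%, the E-box (CACGTG) in 3.69% and 2.18%, ETS (CCGGAAGT) in 0.430% and 0.106%, and NRF1 (GCGCATGCG) in 0.159% and 0.0158%. The SOX motif (CATTGT) was in 10.8% of first-intron peaks and 11.7% of windows without a peak, the forkhead motif (TGTTTAC) in 2.79% and 2.90%, and the AT-rich GATA motif (AGATAA) in 6.97% and 12.8%. A bare CG was in 86.2% and 73.1%. The windows with and without a peak also differ in GC content, whose part in these shares was not tested.

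**Figure D5:**
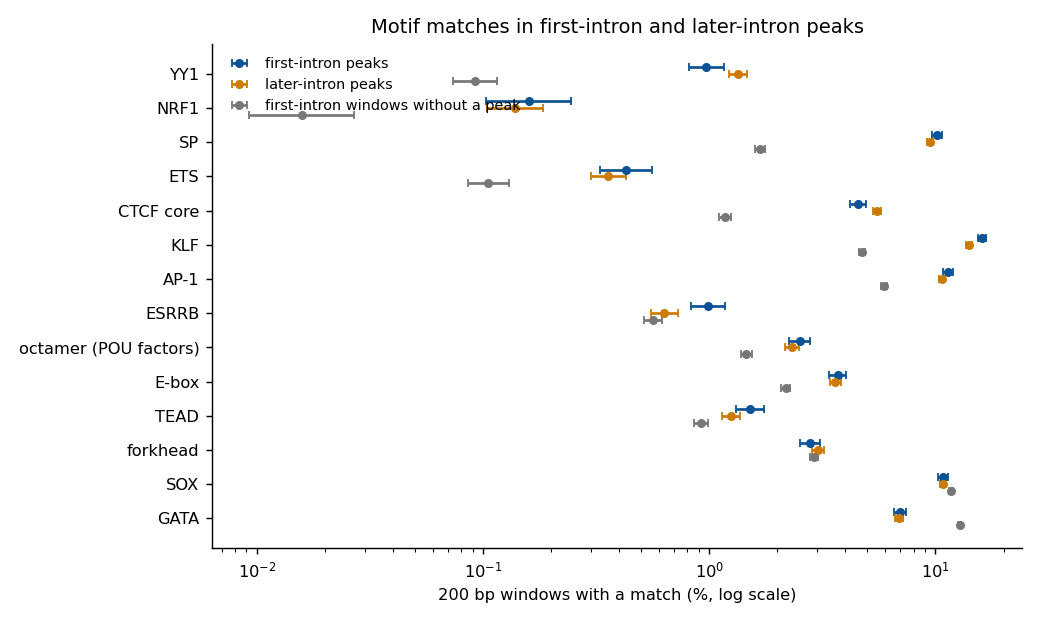
Share of 200 bp windows with at least 1 match to each motif (%, log scale) in first-intron peaks, later-intron peaks and first-intron windows without a peak; bars are 95% Wilson intervals. First-intron and later-intron peaks lie close together for each motif. KLF and ESRRB are higher in first introns and CTCF core and YY1 in later introns over all distances. When split at 20 kb from the start, the intervals overlap for YY1 on both sides. They overlap for KLF within 20 kb, and for ESRRB and CTCF core beyond 20 kb.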

How the data were processed

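Open chromatin was measured by ATAC-seq and H3K4me3 by ChIP-seq in 2 replicates each. The authors mapped ATAC-seq reads to mm10 with Bowtie 1.1.2, removed duplicates with SAMtools, shifted read ends for Tn5, called peaks with MACS2 2.1.1.20160309 and used bedtools 2.27.1 to keep pooled peaks found in both replicates. The deposited list holds positions only. MACS2 scores a position against the reads around it, so strong peaks can affect calls beside them. H3K4me3 peaks were made by the authors with the ENCODE histone pipeline, with mm10 in the submitters' processing notes. That deposited list gives a fold enrichment (a ratio over background), −log10 q, and a display score that was not used. Depth is unknown, since neither list holds counts, and the intervals given cover counting error or the spread between genes.

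Genes came from GENCODE M21 and sequence from RefSeq, both of the mm10 build. The longest transcript is that with the largest summed exon length. Densities were compared by Poisson regression (statsmodels 0.14.6) with an offset of eligible kb and errors clustered by gene, checked on simulated data. Differences were called where the 95% interval excludes 1. Alternatives changed the transcript taken as longest, the distance and width limits, how peaks were counted, the H3K4me3 rule, the bases used and the clustering of errors. Peak selection was checked with bedtools 2.31.1, which gave the same 12566 peaks. Tables were handled with pandas 2.3.3 and numpy 2.4.6 under Python 3.11.15, intervals came from scipy 1.17.1, and plots from matplotlib 3.10.9.

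The regions, the 8 gene lists and the tests were chosen with earlier results of these data known. The genes named are the autosomal pluripotency factors of the list, the 10 with the most first-intron peaks, the 5 densest marked and 5 densest unmarked with at least 10 eligible kb, the 5 longest marked first introns without a peak, and from each other list the 2 with the most peaks and the longest without one. A gene of the lists is not reported here. Genes named outside this rule were chosen after their values were seen.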

Additional observations from a re-analysis of the deposited data

How the results depend on the processing

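Each ratio was computed again under up to 20 alternatives, those with distance classes or without Gm20388 being chosen after seeing the data. The ratio of first-intron density between marked and unmarked genes (1.203 to 1.56 over 19 alternatives) and the ratio of H3K4me3 overlap (1.11 to 1.90 over 16) kept their direction and an interval that excludes 1. The density ratio of marked genes kept both in 17 of 20, and was 0.931 with distance classes, 0.931 with distance classes over 5 kb from the start, and 0.898 with distance classes and without Gm20388. The ratio of unmarked genes passed the threshold with the transcript of longest genomic span (1.12), whole peaks inside the eligible bases (1.17), H3K4me3 at any start of the gene (1.13) and non-repeat bases (1.14). It fell below 1 at 5 to 50 kb from the start (0.946), and with distance classes alone (0.985), over 5 kb (0.957) or without Gm20388 (0.985). The ratio of the 2 ratios was 1.24 (1.09 to 1.42) at 5 to 50 kb, and 0.980 with distance classes and without Gm20388. First-intron bases lie nearer the start, and what else moves these values was not tested.

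No paired analysis was possible because each list stands for both replicates, and leaving out a replicate was not run for the same reason. Distances within 5 kb of a start rest on few later-intron peaks (93 in marked and 44 in unmarked genes), which limits the comparison there. The repeat, H3K4me3-start and second-intron alternatives were not run for every ratio.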
